A study of Rattus norvegicus with 6 samples.

Results

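The genes described here encode the collagens, the laminins, the matrix metalloproteinases (Mmp), the tissue inhibitors of metalloproteinases (Timp) and the secreted Adamts proteases. They were taken by symbol from the probe-to-gene table of the array, as every probe set with a single gene symbol made of one of those family names and a number (Col, with its type and chain, Lama, Lamb or Lamc, Mmp, Timp or Adamts). This gave 119 probe sets for 84 genes, of 31042 probe sets tested on the array. The collagens had 58 probe sets for 41 genes, the laminins 14 for 10 genes, the Mmp family 24 for 17 genes, the Timp family 8 for 4 genes and the Adamts family 15 for 12 genes. The symbol alone chose the probe sets, and no measured value entered the rule. The families and the later lists were, however, chosen with earlier results of these data known.

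Liver RNA was profiled on 6 Affymetrix arrays from rats of the BBDR background, which resists spontaneous diabetes. Of these, 2 came from BBDR.lyp/lyp rats aged 50 days (± 5), before hyperglycemia (pre-hyperglycemia), 2 from BBDR.lyp/lyp rats aged 55 days (± 5), shortly after its onset (post-hyperglycemia), and 2 from BBDR.+/+ rats aged 55 days, which carry no lyp allele and stay free of diabetes unless it is induced. The lyp mutation is a frameshift in Gimap5 that leaves the animals short of T cells, and all BBDR.lyp/lyp rats become diabetic. The labels say that the animals were fasted for 12 h before tissue was taken. They do not say which arrays, if any, share a rat, so the p-values measure only the spread between these samples. The nominal age of the pre-hyperglycemia rats was below that of both other groups, although the ranges overlap. Age thus cannot be told apart from stage within BBDR.lyp/lyp, or from genotype for pre-hyperglycemia against BBDR.+/+. Post-hyperglycemia against BBDR.+/+ changes genotype and hyperglycemia together, and these cannot be told apart either.

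The extracellular matrix of the liver is sparse. Fibrillar collagens of types I, III and V lie mainly around portal tracts and central veins, while type IV collagen and laminins line vessels and bile ducts and occur in low amounts along the sinusoids. Hepatic stellate cells in the space between hepatocytes and sinusoidal endothelium, together with portal fibroblasts, make most of the fibrillar collagen, and their output of type I collagen and Timp1 is the classic sign of their activation in injury. The Mmp proteases cut matrix proteins, the Timp proteins block them, and the Adamts proteases cut proteoglycans and process procollagens.

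The values are log2 signals. Array pairs of the same group correlated at 0.996 to 0.997 over all probe sets and pairs of different groups at 0.990 to 0.996. The Gimap5 probe set, which reads the level of the transcript and not the frameshift itself, gave 6.43 and 6.45 in BBDR.+/+, 5.52 and 5.85 before and 5.71 and 5.91 after hyperglycemia. Its values in both BBDR.lyp/lyp groups lay below BBDR.+/+ (-0.76, adjusted p = 0.0284 before, and -0.63, adjusted p = 0.0191 after). The post-hyperglycemia arrays stood apart in one technical measure. The 3' minus 5' difference of the beta-actin controls, which grows as signal from the 5' end of a transcript is lost, was 2.11 and 2.04 on them against 1.12 to 1.51 on the other 4 arrays, and for GAPDH 1.37 and 1.33 against 0.44 to 0.72.

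Few of these matrix genes passed the test in any comparison, and those that did were mainly the chains of type I collagen and laminin beta 1. Before hyperglycemia, 3 of the 119 probe sets were higher than in BBDR.+/+ at an adjusted p under 0.05 and 0 were lower (2.52% higher, against 0.464% of all probe sets higher and 0.254% lower). Both Col1a1 probe sets and Lamb1 were called. At an unadjusted p under 0.05, 19 members were higher and 4 lower (16% and 3.36%, against 6.43% and 4.95% of all probe sets).

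From before to after hyperglycemia, 2 of the 119 passed as lower and 0 as higher (1.68% lower, against 1.46% of all probe sets lower and 0.718% higher). They were Col1a1 and Col1a2. At an unadjusted p under 0.05, 14 members were lower and 5 higher (11.8% and 4.20%, against 7.65% and 7.29% of all probe sets).

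After hyperglycemia, 2 of the 119 were higher than in BBDR.+/+, Col1a1 and Lamb1, and 1 was lower, a Col6a3 probe set (1.68% and 0.840%, against 1.89% of all probe sets higher and 3.26% lower). Before adjustment, with p under 0.05, 15 members were higher and 7 lower (12.6% and 5.88%, against 10.7% and 8.98% of all probe sets). The members' shares in this comparison lay near or below those of the whole array.

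These calls rest on 2 arrays a group. Leaving out any 1 of the 6 arrays left at most 1 of the 119 called in each comparison, and the called values named below then ranged from 0.36 to 0.62 in size for the members higher than BBDR.+/+. The methods' t-test on the same values called 0 of the 119 in each comparison after Benjamini-Hochberg adjustment, and of all 31042 probe sets only 1 (pre-hyperglycemia against BBDR.+/+) and 0 in the others. Before adjustment its p was under 0.05 for 19.3% of members and 8.97% of all probe sets for pre-hyperglycemia against BBDR.+/+ (19 members higher, 4 lower). The shares were 7.56% and 8.99% for post- against pre-hyperglycemia (2 higher, 7 lower) and 13.4% and 10.8% for post-hyperglycemia against BBDR.+/+ (12 higher, 4 lower). The medians over the 119 were small: 0.06 for pre-hyperglycemia minus BBDR.+/+ (median of all probe sets -0.003), -0.003 for post- minus pre-hyperglycemia (all probe sets 0.01) and 0.03 for post-hyperglycemia minus BBDR.+/+ (all probe sets 0.01).

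**Figure D1:**
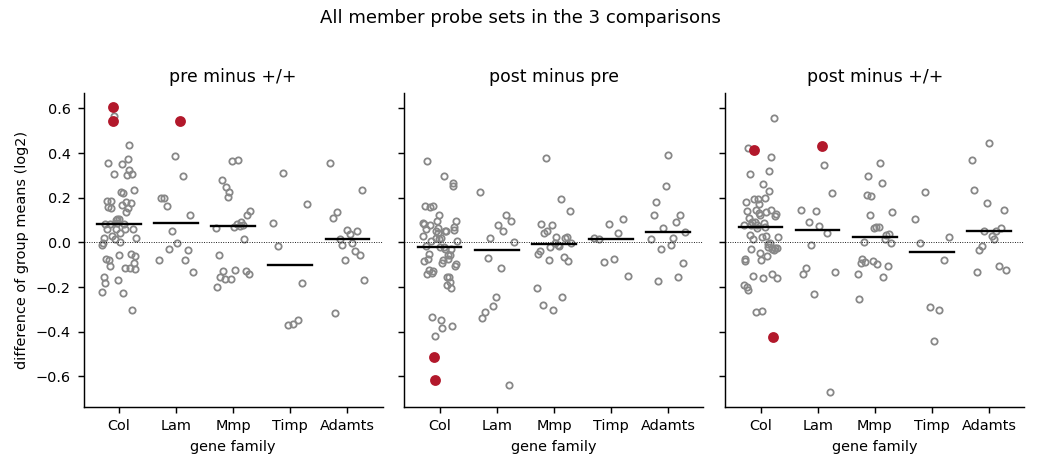
Each point is 1 of the 119 member probe sets, by gene family (x axis), with its difference between group means on the log2 scale (y axis) in the 3 comparisons. Filled red points passed at an adjusted p under 0.05, and black lines are family medians. Most points lie within 0.4 of 0, the called points are collagens and 1 laminin, and the collagen median moves from 0.08 (pre minus +/+) to -0.02 (post minus pre).

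The median differences were larger in size among the brighter probe sets. Of the members, 57 had a mean signal above the median of all probe sets, among them 29 of 58 collagens, 8 of 14 laminins, 10 of 24 Mmp, 4 of 8 Timp and 6 of 15 Adamts probe sets. Over those 57, the median difference of pre-hyperglycemia minus BBDR.+/+ was 0.17, with 45 above 0 and 12 below, against a median of 0.03 over all probe sets above that signal. For post- minus pre-hyperglycemia it was -0.07, with 36 below 0 and 21 above, against 0.002. For post-hyperglycemia minus BBDR.+/+ it was 0.09, with 34 above 0 and 23 below, against 0.05. Of all 15521 probe sets above that signal, 8862, 7824 and 9096 were above 0 in the 3 comparisons in this order. Brightness depends on the probes as well as on the transcript, so it sets no order of abundance between genes.

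**Figure D2:**
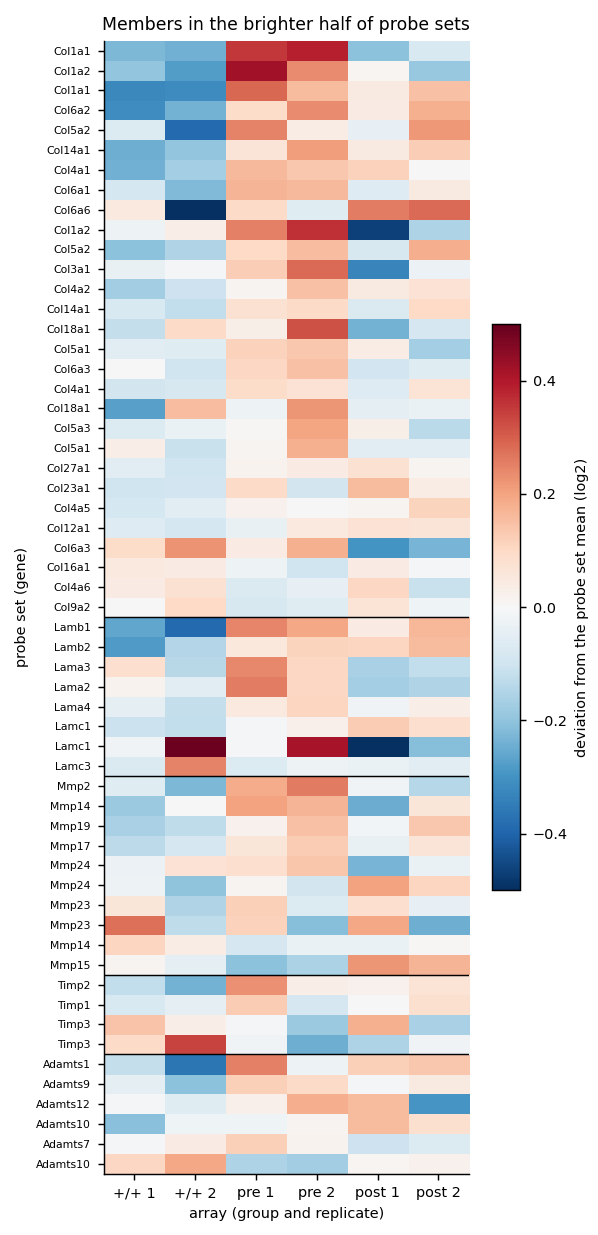
Rows are the 57 member probe sets with a mean signal above the median of all probe sets, columns the 6 arrays by group and replicate, and colour the deviation of each value from the mean of its row (log2, capped at 0.5 on either side). Rows are ordered by family (collagens, laminins, Mmp, Timp, Adamts, set off by lines) and then by the difference of pre minus +/+, so the top rows of each family, led by Col1a1, Col1a2, Lamb1 and Mmp2, show blue +/+ and red pre arrays.

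Type I collagen, the main protein of fibrous tissue, is built from the products of Col1a1 and Col1a2, each read by a pair of probe sets. The brighter Col1a1 probe set gave 7.72 and 7.70 in BBDR.+/+, 8.29 and 8.33 before and 7.74 and 7.87 after hyperglycemia. The pre-hyperglycemia arrays stood above all others, by 0.60 ± 0.10 (SE, n = 2 and 2 arrays, 1.52-fold) over BBDR.+/+ (adjusted p = 0.0284). The value then fell by 0.51 ± 0.10 from before to after hyperglycemia (1.43-fold, adjusted p = 0.0310), which brought it to within 0.09 ± 0.10 of BBDR.+/+ (adjusted p = 0.687).

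The dimmer Col1a1 probe set was higher than BBDR.+/+ both before and after hyperglycemia. It read 7.08 and 7.09 in BBDR.+/+, 7.69 and 7.56 before and 7.45 and 7.55 after hyperglycemia. The difference was 0.54 ± 0.10 before (1.46-fold, adjusted p = 0.0487) and 0.41 ± 0.10 after (1.33-fold, adjusted p = 0.0477). Post- minus pre-hyperglycemia it differed by -0.13 ± 0.10 (adjusted p = 0.641). The pair thus disagree on whether Col1a1 stayed above BBDR.+/+ after hyperglycemia.

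The brighter Col1a2 probe set read 8.06 and 8.12 in BBDR.+/+, 8.34 and 8.45 before and 7.62 and 7.93 after hyperglycemia. It fell by 0.62 ± 0.12 from before to after (1.53-fold, adjusted p = 0.0293), to values below both BBDR.+/+ arrays (-0.31 ± 0.12, adjusted p = 0.185). The dimmer one read 7.75 and 7.67, then 8.37 and 8.19, then 7.96 and 7.76 in the same order of groups. Its largest difference was that of pre-hyperglycemia over BBDR.+/+, 0.57 ± 0.12, which just missed the threshold (adjusted p = 0.0590), and post- minus pre-hyperglycemia it gave -0.42 ± 0.12 (adjusted p = 0.0998). All 4 type I collagen probe sets were thus highest on the pre-hyperglycemia arrays. They read only Col1a1 and Col1a2, on the same arrays, and are not separate evidence.

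The promoter table, from RefSeq on the GRCr8 assembly, held 63 of the 84 genes, Col1a2 and Lamb1 among them and Col1a1 not. The stretch of Col1a2 at chr4:33518327-33518406 (plus strand, bases -230 to -151 from the annotated start) is shown because it holds, in capitals, the letters of a CCAAT box read on the other strand (ATTGG, from -221) and of a TATA box (TATAAA, from -170).
Col1a2: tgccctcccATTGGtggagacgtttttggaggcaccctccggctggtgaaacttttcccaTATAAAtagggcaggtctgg
Over windows of 250 bases before to 50 after each start, read on both strands, CCAAT occurred in 37.5% of all 33469 promoters and in 30.2% of the members', TATAAA in 14.2% and 22.2%, and GGGCGG, the letters of a GC box, in 33.1% and 54.0%. None of these motifs overlaps another within the printed stretch, and a match is a description of letters and not a binding site.

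None of the other fibrillar collagens passed. Col3a1, the type III chain that joins type I fibrils in the liver, gave 11.33 and 11.35 in BBDR.+/+, 11.49 and 11.65 before and 11.03 and 11.33 after hyperglycemia. Its post-hyperglycemia arrays lay below both pre-hyperglycemia arrays (-0.38 ± 0.12, adjusted p = 0.156) and overlapped BBDR.+/+. Col5a2, a type V chain that sets fibril width, lies next to Col3a1 on chromosome 9. Its 2 probe sets were 0.30 ± 0.11 and 0.37 ± 0.14 above BBDR.+/+ before hyperglycemia and 0.23 ± 0.11 and 0.32 ± 0.14 above it after (adjusted p between 0.241 and 0.327).

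The 2 Col5a1 probe sets stayed within 0.19 of 0 in each comparison. Of the 19 fibrillar collagen probe sets, 11 were above the median signal. All 11 of these were above 0 for pre-hyperglycemia minus BBDR.+/+ (median 0.30) and 10 of 11 were below 0 for post- minus pre-hyperglycemia (median -0.16). Both comparisons share the pre-hyperglycemia arrays. For post-hyperglycemia minus BBDR.+/+ their median was 0.09, with 6 above 0 and 5 below. Among the dimmer ones, Col2a1, the cartilage collagen, had 3 probe sets, of which one was lower after hyperglycemia than before (-0.35 ± 0.10, adjusted p = 0.114) and the other 2 differed by no more than 0.02.

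**Figure D3:**
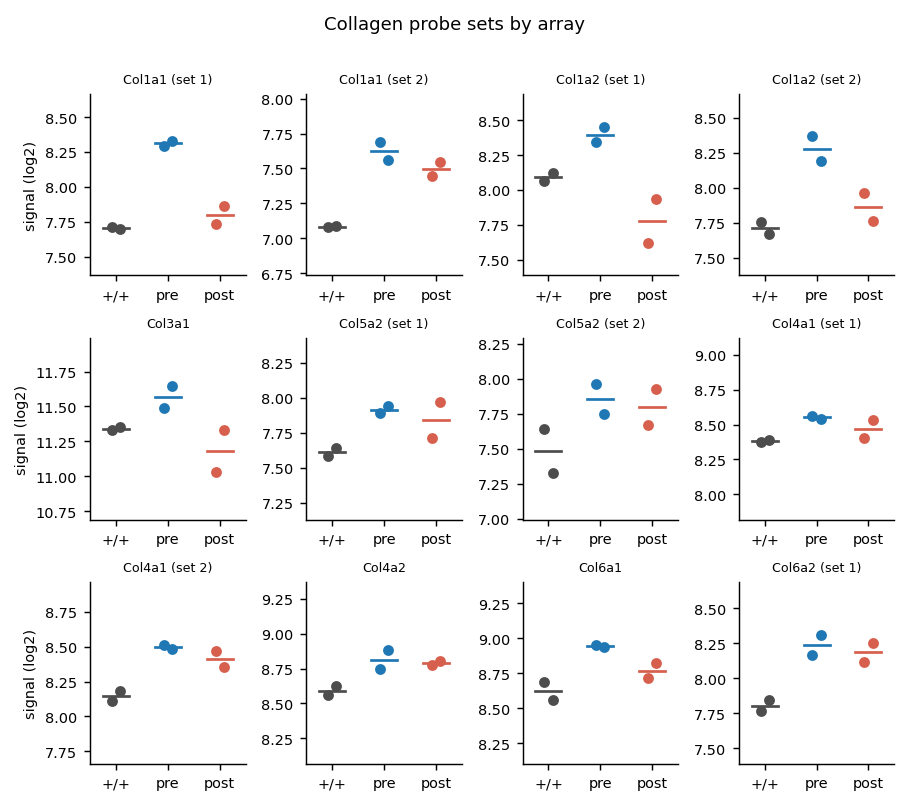
Log2 signal (y axis, each panel spans 1.3 units) of 12 collagen probe sets on the 2 arrays of each group (points) with the group mean (line). Set 1 is the brighter and set 2 the dimmer probe set of a gene. The pre-hyperglycemia points of all Col1a1 and Col1a2 panels lie above the +/+ points, while for post-hyperglycemia the Col1a1 panels differ from each other.

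Type IV collagen forms the sheet-like network of basement membranes, and its main chains Col4a1 and Col4a2 are transcribed in opposite directions from one shared interval. In the RefSeq table their annotated starts are separated by 76 bases at chr16:84885521-84885596, printed on the plus strand because it serves both genes, with the letters of a GC box read on the other strand in capitals (16 bases upstream of the Col4a1 start).
Col4a1-Col4a2: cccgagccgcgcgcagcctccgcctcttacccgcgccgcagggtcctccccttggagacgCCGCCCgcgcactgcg
The Col4a2 probe set read 8.56 and 8.63 in BBDR.+/+, 8.75 and 8.88 before and 8.78 and 8.81 after hyperglycemia. Both BBDR.lyp/lyp groups lay above BBDR.+/+ without passing the test (0.22 ± 0.10, adjusted p = 0.463, and 0.20 ± 0.10, adjusted p = 0.332). The dimmer Col4a1 probe set gave 0.35 ± 0.10 before (adjusted p = 0.190) and 0.26 ± 0.10 after (adjusted p = 0.186), and the brighter one 0.17 ± 0.10 and 0.09 ± 0.10. Neither gene differed by more than 0.09 between the BBDR.lyp/lyp groups. The minor chain gene Col4a4 was dim, and its largest difference was 0.30 ± 0.11 for post- minus pre-hyperglycemia (adjusted p = 0.218).

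Type VI collagen makes beaded filaments beside basement membranes. Col6a1 and Col6a2 are neighbours on chromosome 20. Col6a2 (brighter probe set) gave 7.76 and 7.84 in BBDR.+/+, 8.17 and 8.31 before and 8.12 and 8.25 after hyperglycemia. Both BBDR.lyp/lyp groups stood above BBDR.+/+ with no overlap, by 0.44 ± 0.11 (adjusted p = 0.127) and 0.38 ± 0.11 (adjusted p = 0.0729), while the dimmer probe set gave -0.11 ± 0.13 and -0.14 ± 0.13. Col6a1 read 8.69 and 8.56, then 8.95 and 8.94, then 8.71 and 8.82 in the order BBDR.+/+, pre, post. Its pre-hyperglycemia arrays were the highest (0.32 ± 0.11 above BBDR.+/+, adjusted p = 0.245).

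Col6a3, the third chain of the common type VI molecule, had 2 probe sets that did not move together. The dimmer one read 6.25 and 6.39 in BBDR.+/+, 6.20 and 6.34 before and 5.86 and 5.93 after hyperglycemia, lower after hyperglycemia than in BBDR.+/+ by 0.42 on the log2 scale (-0.42 ± 0.11, adjusted p = 0.0481). The brighter one differed by -0.03 ± 0.10 in that comparison (adjusted p = 0.917). With a covariate for the 3' minus 5' difference, which separates the post-hyperglycemia arrays from the others, the dimmer Col6a3 probe set was at 0.08 (adjusted p = 0.980). That fit called 0 of the 119 members in any comparison, and of all probe sets 0 in both comparisons with the post-hyperglycemia arrays and 115 for pre-hyperglycemia against BBDR.+/+. The called values of the other members against BBDR.+/+ became 0.61 and 0.53 for Col1a1 and 0.51 for Lamb1 before hyperglycemia, and 0.31 for Col1a1 and 0.15 for Lamb1 after it. From before to after they became -0.44 for Col1a1 and -0.25 for Col1a2. Centring each array on its median or on ribosomal protein genes also took it past the threshold (adjusted p = 0.0580 and 0.0720).

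Col6a6, an alternative type VI chain, had the widest spread within a group. Its BBDR.+/+ arrays read 5.98 and 5.30, against 6.18 and 6.21 after hyperglycemia, a difference of 0.56 ± 0.18 (adjusted p = 0.109). Without the first BBDR.+/+ array the difference was 0.89 and passed (adjusted p = 0.0158), and this was the one member called in that setting. Col6a5, its neighbour on chromosome 8, was dim and lowest before hyperglycemia (-0.30 ± 0.11 against BBDR.+/+, adjusted p = 0.294).

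Among the remaining collagens, Col14a1, a fibril-associated collagen of mesenchymal cells, had 1 of 2 probe sets above BBDR.+/+ by 0.36 ± 0.11 before and 0.30 ± 0.11 after hyperglycemia (adjusted p = 0.193 and 0.135), while the brighter one gave 0.18 ± 0.11 and 0.11 ± 0.11. Col18a1, whose C-terminal fragment is endostatin and which hepatocytes express, overlapped between BBDR.+/+ and each BBDR.lyp/lyp group on both probe sets. Col13a1, a transmembrane collagen, read 5.66 and 5.78, then 6.01 and 5.55, then 6.21 and 6.08, and its post-hyperglycemia arrays were the highest (0.42 ± 0.14 over BBDR.+/+, adjusted p = 0.126).

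Laminins are 3-chain proteins of basement membranes, each with an alpha, a beta and a gamma chain. Lamb1, the beta 1 chain, read 6.62 and 6.49 in BBDR.+/+, 7.13 and 7.08 before and 6.93 and 7.05 after hyperglycemia. Like the dimmer Col1a1 probe set, it was higher in both BBDR.lyp/lyp groups than in BBDR.+/+, by 0.55 ± 0.11 before (1.46-fold, adjusted p = 0.0497) and 0.43 ± 0.11 after hyperglycemia (1.35-fold, adjusted p = 0.0438), both against the same BBDR.+/+ arrays. The BBDR.lyp/lyp groups differed from each other by -0.12 ± 0.11 (adjusted p = 0.688).

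The Lamb1 stretch at chr6:53562996-53563035 (plus strand, bases -100 to -61 from the start) carried the GC box letters, read on the other strand, at -87 and again at -78, in capitals.
Lamb1: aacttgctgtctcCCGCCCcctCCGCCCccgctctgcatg
The 2 matches lie side by side and do not overlap.

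Lamb2, the beta 2 chain, did not pass, with 6.44 and 6.58 in BBDR.+/+, 6.78 and 6.83 before and 6.83 and 6.88 after hyperglycemia. Its differences from BBDR.+/+ were 0.30 ± 0.10 (adjusted p = 0.286) and 0.35 ± 0.10 (adjusted p = 0.0884). Lamc1, the common gamma chain, again had a pair of probe sets that disagreed. The brighter one gave 8.03 and 8.01, then 8.13 and 8.16, then 8.26 and 8.22, a difference of 0.22 ± 0.10 for post-hyperglycemia over BBDR.+/+ (adjusted p = 0.251). The dimmer one gave 5.97 and 6.47, then 5.97 and 6.40, then 5.33 and 5.77, and so -0.67 ± 0.20 in that comparison (adjusted p = 0.0834) and -0.64 ± 0.20 for post- minus pre-hyperglycemia (adjusted p = 0.144).

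None of the alpha chains passed, and their differences for post- minus pre-hyperglycemia ran from -0.34 (Lama2) to 0.22 (Lama1, adjusted p = 0.446). Lama2, the chain of mesenchymal basement membranes, read 6.88 and 6.81 in BBDR.+/+, 7.12 and 6.97 before and 6.69 and 6.71 after (-0.34 ± 0.10 for post minus pre, adjusted p = 0.140). Lama3 gave -0.31 ± 0.11 (adjusted p = 0.214), the brightest of 3 Lama5 probe sets -0.24 ± 0.10 (adjusted p = 0.282) and the brighter Lama4 probe set, of the vascular chain, -0.07 ± 0.10 (adjusted p = 0.818) in the same comparison. That Lama5 probe set also stood 0.38 ± 0.10 above BBDR.+/+ before hyperglycemia (adjusted p = 0.145), where the other 2 gave 0.00 and 0.05.

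None of the 47 Mmp, Timp and Adamts probe sets passed in any comparison. Before adjustment, a p under 0.05 was reached by 3 higher and 0 lower Mmp, 1 higher and 2 lower Timp and 2 higher and 1 lower Adamts probe sets for pre-hyperglycemia against BBDR.+/+ (12.5%, 12.5% and 13.3% higher and 0%, 25% and 6.67% lower, against 6.43% and 4.95% of all probe sets). For post- against pre-hyperglycemia it was reached by 1 higher and 3 lower Mmp, no Timp and 1 higher Adamts probe sets (4.17% of Mmp and 6.67% of Adamts higher and 12.5% of Mmp lower, against 7.29% and 7.65% of all probe sets). For post-hyperglycemia against BBDR.+/+ it was reached by 3 higher Mmp, 3 lower Timp and 2 higher Adamts probe sets (12.5% of Mmp and 13.3% of Adamts higher, against 10.7% of all probe sets, and 37.5% of Timp lower, all of them Timp3, against 8.98%). Mmp2, a gelatinase of mesenchymal cells, and Mmp14, the membrane protease that activates it, were both highest before hyperglycemia. Mmp2 (brighter probe set) read 7.44 and 7.27 in BBDR.+/+, 7.68 and 7.76 before and 7.48 and 7.35 after, with 0.36 ± 0.11 over BBDR.+/+ (adjusted p = 0.198) and -0.30 ± 0.11 from before to after (adjusted p = 0.212).

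Mmp14 (brighter probe set) read 9.75 and 9.93, then 10.14 and 10.10, then 9.69 and 9.99, so that its post-hyperglycemia arrays overlapped BBDR.+/+ (0.00 ± 0.13). The dimmer probe sets of both genes went the other way, by -0.16 ± 0.10 for Mmp2 and -0.13 ± 0.10 for Mmp14 (pre-hyperglycemia minus BBDR.+/+). Mmp15, another membrane-bound protease, had the opposite course. Its arrays read 8.87 and 8.81 in BBDR.+/+, 8.65 and 8.70 before and 9.08 and 9.03 after hyperglycemia. The 3 groups did not overlap, and the difference from before to after was 0.38 ± 0.10 (adjusted p = 0.0903).

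Mmp24 had 3 probe sets, and the dimmest was 0.37 ± 0.10 above BBDR.+/+ before and 0.35 ± 0.10 after hyperglycemia (adjusted p = 0.166 and 0.0790), while the brightest gave 0.07 ± 0.11 and 0.27 ± 0.11. The remaining one, of middle brightness, gave 0.09 ± 0.11 before and -0.15 ± 0.11 after hyperglycemia. The secreted proteases that injury and inflammation raise in liver were dim, and none passed. Mmp13, the rodent interstitial collagenase, Mmp12, the macrophage elastase, Mmp3 and Mmp7 lie in one cluster on chromosome 8 with Mmp8 and Mmp10. Against BBDR.+/+, the post-hyperglycemia differences of Mmp13 (95% interval -0.33 to 0.18), Mmp12 (-0.34 to 0.15), Mmp3 (-0.27 to 0.34) and Mmp7 (-0.35 to 0.14) all had intervals that held 0. Mmp9, the gelatinase of neutrophils and macrophages, gave 0.00 ± 0.15 and 0.14 ± 0.13 on its 2 probe sets.

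The inhibitors did not share one direction. Timp1 read 7.37 and 7.40 in BBDR.+/+, 7.57 and 7.37 before and 7.45 and 7.53 after hyperglycemia, and its difference for post-hyperglycemia over BBDR.+/+ was 0.11 ± 0.11 (95% interval -0.14 to 0.35, adjusted p = 0.665). Timp2, which helps Mmp14 to activate Mmp2, gave 7.45 and 7.33, then 7.80 and 7.60, then 7.59 and 7.64 on the brighter probe set. That probe set stood 0.31 ± 0.11 above BBDR.+/+ before hyperglycemia (adjusted p = 0.291), while the dimmer one gave -0.02 ± 0.11.

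Timp3, the matrix-bound inhibitor of Adamts and Adam proteases, was below BBDR.+/+ on all 4 of its probe sets in both BBDR.lyp/lyp groups. The second brightest read 7.15 and 7.40, then 7.04 and 6.81, then 6.90 and 7.04, with -0.35 ± 0.13 before (adjusted p = 0.301) and -0.30 ± 0.13 after hyperglycemia (adjusted p = 0.209). Over the 4 probe sets the differences ran from -0.37 to -0.18 before and from -0.44 to -0.08 after. They read one transcript and are not separate evidence. Timp4 overlapped in all comparisons.

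Adamts4, an aggrecanase, and Adamts1, which cuts versican, gave the highest differences of their family. Adamts4 read 5.50 and 5.67 in BBDR.+/+, 5.80 and 5.48 before and 5.97 and 6.09 after hyperglycemia, so that the post-hyperglycemia arrays were the highest (0.45 ± 0.13 over BBDR.+/+, adjusted p = 0.0804, and 0.39 ± 0.13 over pre-hyperglycemia, adjusted p = 0.173). Adamts1 read 8.0 and 7.75, then 8.37 and 8.09, then 8.23 and 8.25. It was above BBDR.+/+ in both BBDR.lyp/lyp groups (0.35 ± 0.13, adjusted p = 0.294, and 0.37 ± 0.13, adjusted p = 0.134). Adamts5, next to Adamts1 on chromosome 11, was dim and gave at most 0.04 in any comparison on its 2 probe sets.

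Adamts9 and Adamts10 each had a pair of probe sets of opposite sign for pre-hyperglycemia minus BBDR.+/+ (0.23 and -0.17 for Adamts9, 0.11 and -0.31 for Adamts10). Such disagreement was common. Of the 27 genes with several probe sets, all probe sets were above 0 for 8, below 0 for 2 and of mixed sign for 17 in that comparison. For post- minus pre-hyperglycemia the counts were 1, 9 and 17, and for post-hyperglycemia minus BBDR.+/+ 6, 3 and 18.

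**Figure D4:**
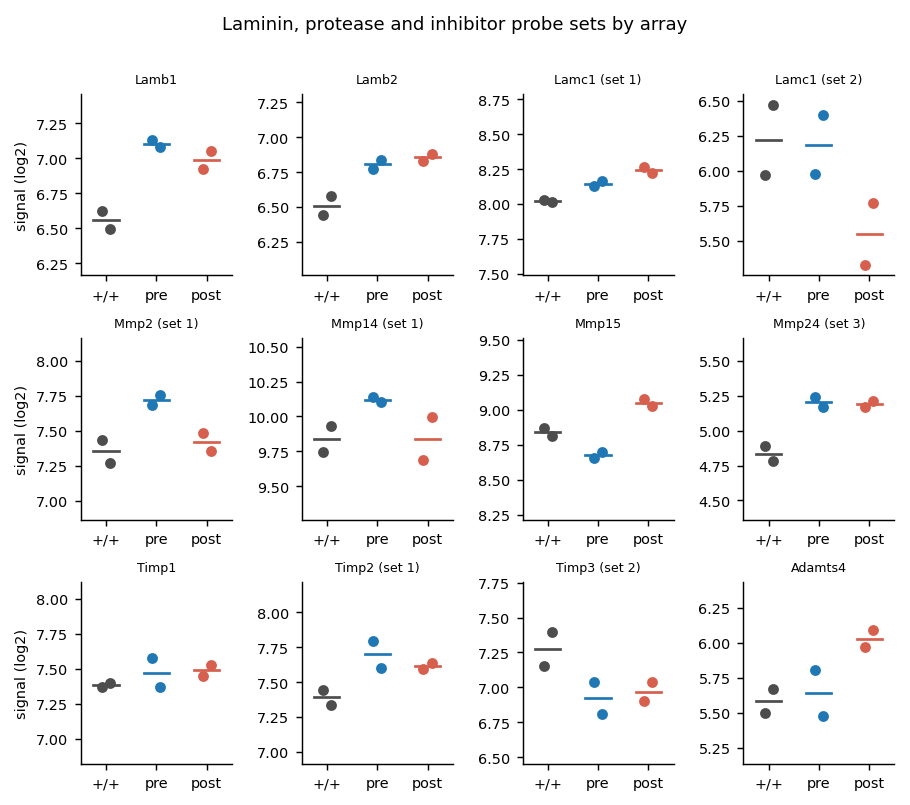
Log2 signal (y axis, each panel spans 1.3 units) of 12 laminin, protease and inhibitor probe sets on the 2 arrays of each group (points) with the group mean (line). Set numbers order the probe sets of a gene by brightness. Lamb1 and Lamb2 stand above +/+ in both lyp/lyp groups, Mmp2 and Mmp14 peak before hyperglycemia, Mmp15 is lowest there, and the Timp1 arrays all lie between 7.37 and 7.57.

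Collagen chains are modified, folded and cross-linked by a set of enzymes and chaperones. Of 21 listed, 19 were measured, and 0 passed in any comparison. Each gene of this and the later lists was read by its brightest probe set. The shares of all probe sets given beside them include dim ones and are not like for like. At an unadjusted p under 0.05, 6 were higher before hyperglycemia than in BBDR.+/+ and 0 lower (6.43% and 4.95% of all probe sets). From before to after, 2 were lower and 0 higher (7.65% and 7.29% of all probe sets). Serpinh1, the collagen chaperone Hsp47, was 0.40 ± 0.11 above BBDR.+/+ before hyperglycemia (adjusted p = 0.177) and 0.33 lower after than before (-0.33 ± 0.11, adjusted p = 0.182). Loxl2, a cross-linking enzyme, gave 0.47 ± 0.14 (adjusted p = 0.194) and -0.58 ± 0.14 (adjusted p = 0.0648) in these comparisons, and Pcolce, which speeds removal of the procollagen tail, 0.43 ± 0.10 (adjusted p = 0.115) and -0.09 ± 0.10.

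Of 22 measured other matrix proteins, 1 passed. Lum, which also stands among the stellate cell markers and encodes lumican, a small proteoglycan of collagen fibrils, was higher after hyperglycemia than in BBDR.+/+ (0.53 ± 0.12, adjusted p = 0.0313). Fbn1, the microfibril protein fibrillin, gave 0.41 ± 0.11 before hyperglycemia over BBDR.+/+ (adjusted p = 0.150) and -0.38 ± 0.11 from before to after (adjusted p = 0.115). Of 20 measured matrix receptors, 2 were higher after hyperglycemia than in BBDR.+/+ (1.89% of all probe sets were). They were Itga6, the alpha chain of laminin-binding integrins (0.61 ± 0.13, adjusted p = 0.0199), and Itgb3, a vitronectin receptor chain (0.48 ± 0.11, adjusted p = 0.0322). None passed in the other comparisons.

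Of 17 measured genes of TGF-beta signalling, the main inducer of collagen genes, 0 passed in any comparison. At an unadjusted p under 0.05, 3 were higher after hyperglycemia than in BBDR.+/+ (10.7% of all probe sets were). By the same measure, 1 was higher after than before (7.29% of all) and 2 higher before than in BBDR.+/+ (6.43% of all). Tgfb1 was 0.38 ± 0.11 above BBDR.+/+ both before and after (adjusted p = 0.195 and 0.0861). Of 19 measured other proteases and inhibitors, A2m, the broad protease inhibitor alpha-2-macroglobulin that rat liver makes in the acute phase, was higher before hyperglycemia than in BBDR.+/+ (0.78 ± 0.11, adjusted p = 0.00966) and lower after than before (-0.59 ± 0.11, adjusted p = 0.0210). Adam10, a membrane sheddase, was lower than in BBDR.+/+ in both BBDR.lyp/lyp groups (-0.56 ± 0.10, adjusted p = 0.0443, and -0.88 ± 0.10, adjusted p = 0.00140), and Adam15 was higher after hyperglycemia (0.45 ± 0.11, adjusted p = 0.0466). No other gene of that list passed. Of all probe sets, 0.464% were higher and 0.254% lower than BBDR.+/+ before hyperglycemia, and 1.89% and 3.26% after it. From before to after, 1.46% were lower.

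The summed signal of markers of the cells that make matrix also lay higher on the BBDR.lyp/lyp arrays. In bulk liver, more cells of a type and more RNA per cell cannot be told apart. Of 20 stellate cell markers, 19 were measured. Their summed signal (log2 of the summed linear values) ranged from 12.02 to 12.04 in BBDR.+/+, 12.26 to 12.27 before and 12.21 to 12.23 after hyperglycemia. Against BBDR.+/+, 0 of the 19 passed before hyperglycemia (8 higher and 0 lower before adjustment, median 0.21) and 1, Lum, passed after it (7 higher and 1 lower, median 0.20). Of all probe sets, 6.43% were higher and 4.95% lower before adjustment in the former comparison, and 10.7% and 8.98% in the latter. These shares include dim probe sets, while 15 of the 19 markers were above the median signal. In either direction, 21.3% and 32.5% of the brightest 30% of probe sets, fitted alone, had an unadjusted p under 0.05. Of all probe sets 11.4% and 19.7% did. From before to after, 0 passed and the median was -0.06. Pdgfrb, the receptor of activated stellate cells, gave 0.51 ± 0.16 before hyperglycemia (adjusted p = 0.211) and Rgs5, a pericyte gene, 0.46 ± 0.13 (adjusted p = 0.171). In that comparison 15 of the 19 were above 0 and 4 below, the latter being Dcn (-0.19), Hgf (-0.13), Des (-0.03) and Lrat (-0.02). After hyperglycemia against BBDR.+/+ the counts were also 15 and 4, with Dcn (-0.31), Ngfr (-0.26), Lrat (-0.20) and Hgf (-0.19) below 0. The Lum probe set was dim, with a mean of 4.86 over the arrays.

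The 10 measured markers of portal fibroblasts and mesothelium summed to 10.33 to 10.43 in BBDR.+/+, 10.63 to 10.75 before and 10.51 to 10.56 after hyperglycemia, and 0 passed in any comparison. Mfap4, a fibril protein of that list, came nearest (0.58 ± 0.12 before hyperglycemia, adjusted p = 0.0556). Against BBDR.+/+, 7 of the 10 were above 0 and 3 below before hyperglycemia (median 0.09), and 6 above and 4 below after it (median 0.08). Mgp, the brightest of the list, weighs most in the sum. The 11 endothelial markers summed to 12.15 to 12.26, then 12.47, then 12.34 to 12.42, with Pecam1 called after hyperglycemia (0.49 ± 0.11, adjusted p = 0.0340). The 9 Kupffer cell markers, of which 4 passed after hyperglycemia (Cd163, Clec4f, Cd5l and C1qa), summed to 13.39 to 13.41, then 13.66 to 13.70, then 13.72 to 13.79. Of all probe sets, 1.89% passed as higher after hyperglycemia than in BBDR.+/+.

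Of 8 neutrophil and monocyte markers, S100a8 and S100a9 passed in both BBDR.lyp/lyp groups against BBDR.+/+ and Ly6c after hyperglycemia. Of all probe sets, 0.464% passed as higher than BBDR.+/+ before and 1.89% after hyperglycemia. S100a8 was dim in BBDR.+/+ (3.73 and 3.77). Below 0 were Lcn2 (-0.07), Ccr2 (-0.05) and Itgam (-0.02) before, and Ccr2 (-0.32) and Itgam (-0.13) after hyperglycemia. The list medians were 0.08 and 0.17. The list summed to 8.23 to 8.24 in BBDR.+/+, 8.71 to 8.85 before and 8.74 to 8.75 after hyperglycemia. That sum gives bright markers most weight, and S100a9 stood 1.66 and 1.46 above BBDR.+/+ before and after. Of 7 cholangiocyte markers, Aqp1 was lower after hyperglycemia than in BBDR.+/+ (-0.76 ± 0.11, adjusted p = 0.00361), as were 3.26% of all probe sets. None of the others passed. Of these, Krt19 (0.16), Epcam (0.13) and Cftr (0.07) were above 0, and Cldn4 (-0.26), Krt7 (-0.12) and Spp1 (-0.01) below 0. The 7 cholangiocyte markers summed to 9.36 to 9.38 in BBDR.+/+, 9.33 to 9.35 before and 9.11 to 9.23 after hyperglycemia. Without Aqp1, left out after its values were seen, the summed cholangiocyte signal was 8.56 to 8.70 in BBDR.+/+, 8.80 to 8.83 before and 8.66 to 8.75 after hyperglycemia. The order of the groups thus depended on Aqp1. The 9 hepatocyte markers, albumin among them, had 0 called and summed to 16.93 to 16.95 on all 6 arrays. Their probe sets were among the brightest, with mean signals from the 98.8 percentile (Hnf4a) to the top (Alb). Whether signals this high could still show a change was not tested. Single members moved more than the sum. Before hyperglycemia against BBDR.+/+, Hnf4a gave -0.40 ± 0.11 (adjusted p = 0.151) and Apoa1 0.35 ± 0.12 (adjusted p = 0.250). The part of these cell types in the collagen and laminin values was not tested.

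**Figure D5:**
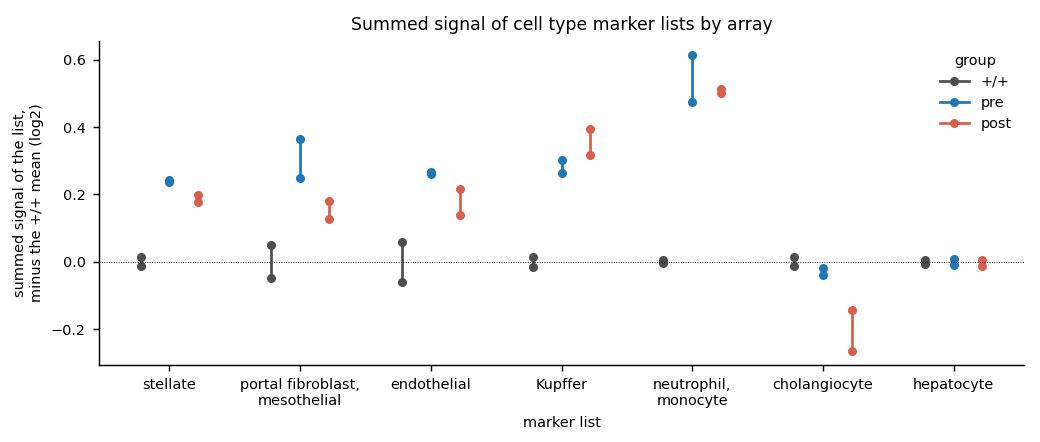
Summed signal of 7 cell type marker lists (x axis) on each array, as the difference from the BBDR.+/+ mean (y axis, log2), with 2 points a group joined by a line. The stellate, portal fibroblast, endothelial, Kupffer and neutrophil lists lie above BBDR.+/+ in both lyp/lyp groups, the last by most. Each sum gives the brightest markers of its list most weight. The hepatocyte list lies at 0, and the cholangiocyte list, Aqp1 included, is lowest after hyperglycemia.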

How the data were processed

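The deposited log2 signals per probe set were made by the authors with Affymetrix Expression Console, for quantification, and Partek Genomic Suite, for normalization (versions and algorithm not given in the sources used here). From these deposited log2 values, limma 3.58.1 (R 4.3.3) fitted group means over all 6 arrays (2 per group, 3 residual and 7.70 prior degrees of freedom) to 31042 probe sets, after 57 control probe sets were left out, with Benjamini-Hochberg adjustment and a threshold of 0.05. Errors are standard errors of that fit, and the number of arrays limits the precision. Genes were named from the platform's annotation table (20826 probe sets with 1 symbol, 436 with several, 9780 with none). For genes of other lists the brightest probe set was used. The members and lists were chosen with earlier results of these data known. Named were members called in any comparison, the smallest p-values per family and comparison, a list of main matrix genes, up to 4 genes of each other list, and Gimap5; others are given by counts and ranges. Alternatives were other normalizations, signal filters, fits and single arrays left out. The methods' rank product test was not run. The labels give a fast of 12 h and a 3' IVT kit, where the methods name free access to food and a two-cycle kit. The fit was tested on simulated data. Coordinates come from RefSeq (GRCr8).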

Additional observations from a re-analysis of the deposited data

How the results depend on the processing

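With 2 arrays a group, the member calls depended on most settings. For each, the calls over all probe sets follow in parentheses. For post-hyperglycemia versus BBDR.+/+ (3 called), quantile normalization gave 1 (1561), the 4 arrays of the comparison alone 0 (1567), an intensity trend 5 (2371), a replicate block 5 (2273), the 3' minus 5' covariate 0 (0), the methods' t-test 0 at either threshold (0) and an adjusted p under 0.20 gave 16 (4958). For post- versus pre-hyperglycemia (2 called), centring on ribosomal protein genes gave 1 (677), the top 30% of probe sets 4 (846), the 4 arrays 0 (413), the trend 4 (1225), the block 4 (1191), the covariate 0 (0), the t-test 0 (0, and 2 at 0.20) and the threshold of 0.20 10 (2603). For pre-hyperglycemia versus BBDR.+/+ (3 called), quantile normalization gave 1 (182), ribosomal centring 1 (191), the top 30% 5 (403), the 4 arrays 1 (212), the covariate 0 (115), the t-test 0 (1, and 5 at 0.20) and the threshold of 0.20 10 (1081). With 1 array left out, the counts ranged from 0 to 1 in each comparison (291 to 1567, 112 to 537 and 12 to 212 over all probe sets), the lone array of a group being assumed to vary like the others. Other settings kept each count within 1.5 times.

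The member median for post-hyperglycemia minus BBDR.+/+ (0.03) was 0.0551 with median centring, 0.0866 with ribosomal centring, 0.0704 and 0.139 over the top 60% and 30% of probe sets, and 0.0087 to 0.0663 with 1 array left out. For post- minus pre-hyperglycemia (-0.003) it was 0.0571 with ribosomal centring, which turns its sign, -0.0080 with quantile normalization, -0.0533 and -0.0833 over the top 60% and 30%, -0.0374 with the covariate and -0.0264 to 0.0043 with 1 array left out. For pre-hyperglycemia minus BBDR.+/+ (0.06) it was 0.0818 with median centring, 0.111 and 0.227 over the top 60% and 30%, and 0.0414 to 0.0707 with 1 array left out. The Col6a3 call turned its sign with the covariate (0.0760). Filters on signal test fewer probe sets, and the causes of the other shifts were not tested. The labels do not say what a shared replicate number means. The differences between replicates 1 and 2 of BBDR.+/+ correlated over probe sets at 0.261 with those before and 0.142 with those after hyperglycemia, and those of the BBDR.lyp/lyp groups at 0.110 with each other, and the replicate block gave 5, 4 and 4 member calls in the order above. The calls it added were the dimmer Lamc1 probe set (-0.67, adjusted p = 0.00270, and -0.64, adjusted p = 0.00645, in the first 2 comparisons), Col6a2 (0.38, adjusted p = 0.0420) in the first, and the dimmer Col1a2 probe set (-0.42, adjusted p = 0.0457, and 0.57, adjusted p = 0.0260) in the last 2. None was lost.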
